A study of Drosophila melanogaster with 4 samples.

Results

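Abrupt (Ab) peaks on the first 20 Mb of the Drosophila melanogaster X chromosome numbered 1720 in ab discs and 1957 in scrib1+ab discs. They are the peaks of the X (dm3 assembly) whose midpoint lies at or below 20 Mb, out of 1778 and 2029 X peaks and out of 8881 and 10892 peaks on all arms, or 19.4% and 17.97% of each list. The samples were mosaic eye/antennal imaginal discs of larvae about 5 days after egg laying. In both genotypes ey-FLP1 and the FRT82B site produced MARCM clones that carried UAS-ab55, driven by Tub-GAL4 and freed from Tub-GAL80, and mCD8-GFP. In ab discs the clones overexpressed ab alone. In scrib1+ab discs they were also homozygous for scrib1, a loss-of-function allele of the polarity gene scribble. Chromatin was pulled down with a polyclonal rabbit anti-Abrupt antibody, and 3 to 6 immunoprecipitations of about 100 discs each were pooled into 1 library per genotype, set against 1 input library of the same genotype. Unmarked cells that did not overexpress ab remained in the tissue, and the antibody also recognises endogenous Ab.

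Ab is a BTB-zinc finger transcription factor, a class of proteins that bind DNA through zinc fingers and pair through the BTB domain, often to repress transcription. Among its known roles in flies, the study names the timing of border cell migration and neuromuscular junction formation at metamorphosis. The X is a sex chromosome: males have a single copy, whose transcription is raised by the dosage compensation complex. The sex of the larvae was not given, so the number of X copies per cell is not known and its part in the densities below was not tested.

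Each peak is an interval with no height or read count, so position and length are its only measures, and the reads behind a peak are not known. With 1 library per genotype there is no replicate spread. All 95% intervals are exact or score intervals that cover counting error only, treat neighbouring peaks as independent, and do not stand for animals or pools.

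At the limit, the last ab peaks inside were chrX:19771135-19771238 of 104 bp and chrX:19789012-19789137 of 126 bp. The first outside were chrX:20059915-20060104 of 190 bp and chrX:20109803-20110120 of 318 bp. In the scrib1+ab list the last peak inside was chrX:19760457-19760495 of 39 bp, and the first outside was chrX:20102168-20102271 of 104 bp. The limit therefore falls in a stretch free of peaks in both lists.

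The first question was whether Ab peaks are as dense on the X as on autosomal arms of the same extent. The X held 86 ab peaks per Mb (82.0 to 90.2), above 2L with 71.9 (68.2 to 75.7) and close to 3L with 83.5 (79.5 to 87.6). The ratio was 1.20 (1.11 to 1.28) to 2L and 1.03 (0.963 to 1.10) to 3L. In scrib1+ab discs the X held 97.9 peaks per Mb (93.6 to 102), 2L 88.5 (84.4 to 92.7) and 3L 98.6 (94.2 to 103), with ratios of 1.11 (1.04 to 1.18) and 0.993 (0.932 to 1.06). The X thus had more peaks per Mb than 2L in both lists, while its interval against 3L held 1 in both. Counts in bins of 1 Mb varied more than counting error. Their variance over the mean was 6.99 on the X and 9.43 on 2L in ab, and 7.28 and 7.49 in scrib1+ab. These intervals are therefore narrower than the spread along the arms would give, and the contrast with 2L was not tested against that spread.

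The scrib1+ab list was the longer on each arm, by 1.14 times on the X (1.07 to 1.21), 1.23 times on 2L (1.15 to 1.32) and 1.18 times on 3L (1.11 to 1.26). The share of peaks that came from the scrib1+ab list differed between the X and 2L by -1.94 percentage points (-4.29 to 0.422) and between the X and 3L by -0.926 points (-3.21 to 1.36). Both intervals hold 0. The larger number of X peaks in scrib1+ab discs rested on short peaks: without the peaks under 40 bp the ratio was 0.898. On 2L 381 of 1769 scrib1+ab and 32 of 1438 ab peaks were under 40 bp. On 3L they were 427 of 1971 and 48 of 1669. Without them the scrib1+ab list was the shorter on these arms too, so the reversal was not particular to the X.

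The excess over 2L shrank when length was counted in place of peaks. Ab peaks covered 15.3 bp per kb of the X, against 14.6 on 2L and 16.5 on 3L. The covered length on the X was thus 1.04 times that on 2L and 0.923 times that on 3L. In scrib1+ab discs 9.15 bp per kb were covered on the X, 9.37 on 2L and 9.79 on 3L, ratios of 0.977 and 0.935. With only the longer 50% of each list, the X to 2L ratio of peak numbers was 1.04 in ab and 1.01 in scrib1+ab.

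**Figure D1:**
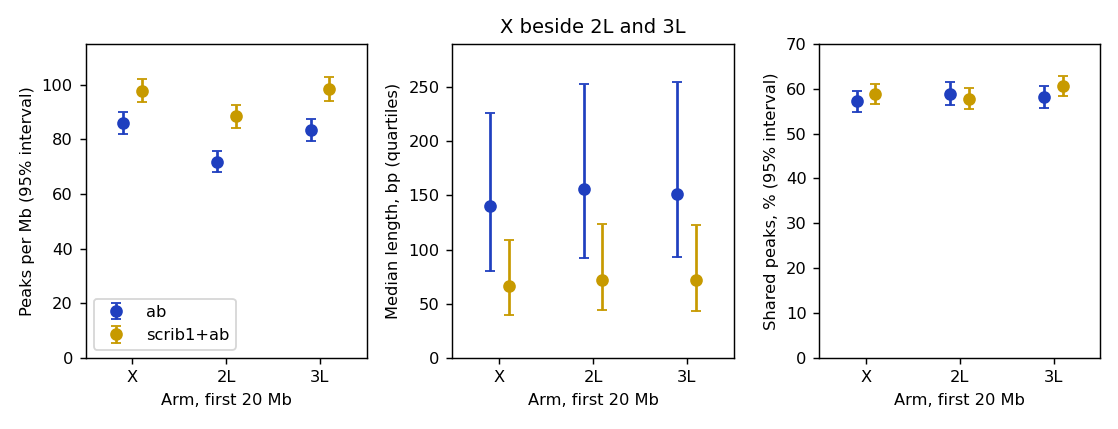
Peaks per Mb (left, bars are 95% counting intervals), median peak length in bp (middle, bars span the quartiles) and percent of peaks shared with the other list (right, 95% intervals) on the first 20 Mb of X, 2L and 3L; blue is ab, yellow is scrib1+ab. The X has 86 ab peaks per Mb against 71.9 on 2L, its median lengths of 140 and 66 bp are the lowest of the 3 arms, and its shared percentages of 57.2 and 58.8 overlap those of the other arms.

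Along the X, peaks were spread over all 20 bins of 1 Mb in both lists, but unevenly. The ab count per bin ran from 43 to 135 with a median of 82, and the scrib1+ab count from 41 to 142 with a median of 92.5. The fullest bin of the ab list was 17 to 18 Mb, with 135 ab and 137 scrib1+ab peaks. The bin from 2 to 3 Mb held 121 and 139, and the bin from 3 to 4 Mb held 120 and 142. These last bins hold the Notch receptor gene N, the paired Polycomb genes ph-d and ph-p, and dm, which encodes the fly Myc protein.

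The emptiest bin was 14 to 15 Mb, with 43 ab and 41 scrib1+ab peaks. The bin from 15 to 16 Mb held 48 and 71, and the bin from 19 to 20 Mb held 62 and 65. The median ab length was 114 bp in the fullest bin, 157 bp in the bin from 2 to 3 Mb and 166 bp in the emptiest. In the scrib1+ab list the same bins had medians of 65, 70 and 56 bp. Covered length followed another order, since the bin from 2 to 3 Mb led in both lists, with 23479 bp under ab peaks and 15391 bp under scrib1+ab peaks.

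In stretches of 5 Mb, the first 10 Mb were the denser in both lists. From the start of the arm, ab density was 94.6, 89.8, 78.4 and 81.2 peaks per Mb. The scrib1+ab density was 109.4, 107.6, 86.8 and 87.6 peaks per Mb. On 2L the ab densities also fell along the arm, from 84.6 and 85 to 61 and 57, whereas on 3L they were 77.8, 68.8, 89 and 98.2.

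The profiles of the lists followed each other. Over the 20 bins Spearman's rho between ab and scrib1+ab counts was 0.916 and Pearson's r was 0.945, a description over bins of 1 library each that share the tissue, the antibody and the base composition of the arm. The scrib1+ab count was higher in 19 of 20 bins, and the exception was the emptiest bin. The ratio per bin ran from 0.953 at 14 to 15 Mb to 1.48 at 15 to 16 Mb, where the interval of 1.01 to 2.18 was wide. In all 20 bins the interval held the ratio for the whole X region, 1.14, so no bin stood apart from that ratio beyond counting error. On 2L and 3L rho was 0.905 and 0.878, and the scrib1+ab count was higher in 18 of 20 bins of each. The close profiles were therefore not particular to the X.

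**Figure D2:**
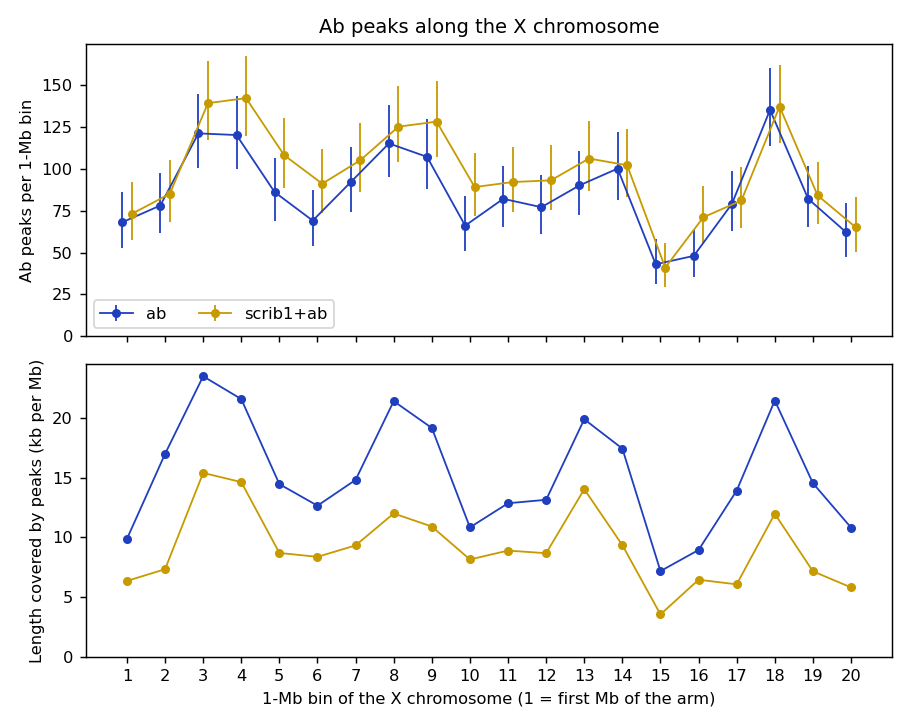
Peaks per 1-Mb bin (top, bars are exact 95% Poisson intervals) and length covered by peaks in kb per Mb (bottom) along the 20 bins of the X; blue is ab, yellow is scrib1+ab, and the points of the lists are set slightly apart in the top panel. Both lists peak in bins 3, 4 and 18 and reach their lowest counts, 43 and 41, in bin 15.

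At a resolution of 100 kb, the ab count per bin ran from 0 to 32 with a median of 7, and the scrib1+ab count from 0 to 36 with a median of 8. The variance over the mean was 5.55 and 7.07, so counts varied more between bins than they would around 1 common rate. The fullest 10% of bins held 26.7% of ab peaks (24.6 to 28.8) and 28.1% of scrib1+ab peaks (26.1 to 30.2). These shares were 29.7% and 31.5% on 2L and 27.9% and 30.5% on 3L. Of the 200 bins, 16 had no ab peak and 20 no scrib1+ab peak, and 14 were empty in both.

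The 5 fullest bins, by the sum of both lists, lay in 4 places. The bin from 3.6 to 3.7 Mb (bin 37) had 32 ab and 34 scrib1+ab peaks, of which 23 and 27 met a peak of the other list. Adjacent bins 126 and 127, from 12.5 to 12.7 Mb, had 25 and 31 ab peaks and 36 and 33 scrib1+ab peaks. Bin 22 (2.1 to 2.2 Mb), next to the bin of the ph genes, had 25 and 36, and bin 50 (4.9 to 5.0 Mb) had 27 and 30. Of the 4 places, all but 2.1 to 2.2 Mb hold 1 or more of the 10 longest peaks of a list, described below. The longest peaks at 2.1 to 2.2 Mb were 629 bp in ab and 417 bp in scrib1+ab.

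**Figure D3:**
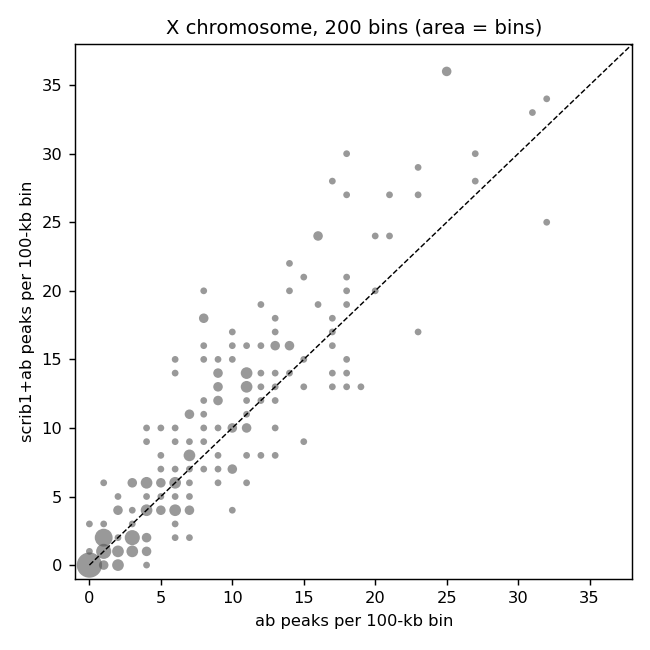
Peaks per 100-kb bin of the X in the ab list (horizontal axis) and the scrib1+ab list (vertical axis), with the dot area proportional to the number of bins and a dashed line of equal counts. Bins lie along the line, and the largest dot, at the origin, stands for the 14 bins that are empty in both lists.

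Peaks came in clusters. The median step from an X peak to the next was 1541 bp in the ab list and 1092 bp in the scrib1+ab list, and 36.9% and 40.1% of peaks had the next one within 500 bp. On 2L and 3L these shares were 34.7% and 33.9% in ab and 40.7% and 39.7% in scrib1+ab. Joining X peaks within 500 bp gave 1086 ab and 1173 scrib1+ab regions, of which 65.2% and 64.9% were single peaks. When both lists were joined, 1440 regions resulted, 713 with peaks of both lists, 331 with ab peaks alone and 396 with scrib1+ab peaks alone. Regions of both lists were counted for the X only, so these numbers cannot be called a trait of the X. The longest, chrX:12555641-12560987, spanned 5347 bp with 9 ab and 11 scrib1+ab peaks.

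Among stretches that begin below 20 Mb, the longest on the X without a peak of either list was chrX:19789138-20059914, of 270777 bp, which crosses the limit. The next, chrX:14112884-14375351 of 262468 bp, lies in the emptiest 1-Mb bin and contains the probe set span of mud, which encodes a spindle orientation protein. The following stretch was chrX:12155156-12364118, of 208963 bp. Stretches over 100 kb without a peak numbered 27 on the X, 34 on 2L and 21 on 3L.

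X peaks were short, and those of scrib1+ab discs were the shorter. The median length was 140 bp in ab (quartiles 80 and 226, range 9 to 1639) and 66 bp in scrib1+ab (40 and 109, range 15 to 1157). Medians on 2L and 3L were 156 and 151 bp in ab and 72 bp on each in scrib1+ab. The most common length was 39 bp in both lists, held by 32 ab and 161 scrib1+ab X peaks. Peaks under 40 bp, the read length set in the peak caller, were 61 of 1720 in ab (3.55%, against 2.65% of ab peaks on all arms). In scrib1+ab they were 467 of 1957 (23.9%, against 23.3% on all arms).

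Long peaks were a smaller share on the X than on the other arms. At 500 bp or more were 62 ab peaks (3.60%, 2.77 to 4.597), against 4.79% on all arms, 5.84% on 2L and 5.21% on 3L. The X share minus that of 2L was -2.24 percentage points (-3.78 to -0.758), and minus that of 3L -1.61 points (-3.02 to -0.224). In scrib1+ab 6 X peaks (0.307%) were that long, against 0.615% on all arms. The difference was -0.767 points to 2L (-1.39 to -0.240) and -0.302 points to 3L (-0.784 to 0.143), so only the former interval leaves out 0.

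The longest X peak was chrX:12645422-12647060 in ab discs, of 1639 bp, in bin 127. It met 3 scrib1+ab peaks, which covered 91.3% of it, the longest of them chrX:12646405-12647069 of 665 bp. The next were chrX:7194334-7195390 of 1057 bp, with a scrib1+ab peak of 675 bp inside it, and chrX:4938181-4939155 of 975 bp, with 2 scrib1+ab peaks that covered 47.1%. A further ab peak of 919 bp lay close to the second, at chrX:7195748-7196666. The others of the 10 longest were between 767 and 861 bp, at 1.0, 5.8, 11.6, 15.7, 18.2 and 18.4 Mb, and 30% to 76.4% of their length was covered by scrib1+ab peaks.

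The longest scrib1+ab X peak was chrX:2031269-2032425, of 1157 bp, on the upstream side of ph-p. In ab discs this stretch held separate peaks of 705 and 449 bp, which covered 89.3% of it. The 9 others of the 10 longest were 467 to 675 bp, and 84.0% to 100% of each lay under ab peaks. All 20 peaks named by length met the other list. No exon, intron or start site annotation of dm3 was at hand for these positions.

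Sharing asks how far Ab peaks were called at the same places in mosaic discs with and without scrib1 mutant clones. An X peak counted as shared when it had at least 1 bp in common with a peak of the other list. Of ab peaks 984 were shared (57.2%, 54.8 to 59.6), close to the 59.1% of ab peaks on all arms, and 736 were in ab alone. Of scrib1+ab peaks 1151 were shared (58.8%, 56.6 to 61.0), against 58.2% on all arms, and 806 were in scrib1+ab alone. On 2L the shares were 58.9% and 57.8% and on 3L 58.2% and 60.7%, and the interval of each difference from the X held 0. The smaller number of shared ab peaks arises because 1 ab peak can meet several scrib1+ab peaks. On the X 154 ab peaks (8.95%) met 2 or more, against 11.6% on 2L and 11.3% on 3L, differences of -2.66 points (-4.82 to -0.539) and -2.37 points (-4.41 to -0.338). X ab peaks also had the lower median length, and the part of length in this was not tested. In scrib1+ab the differences were -0.0304 points (-0.660 to 0.576) to 2L and 0.158 points (-0.403 to 0.734) to 3L, and both intervals held 0.

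Along the X, the shared percentage of ab peaks per 1-Mb bin ran from 46.2 at 1 to 2 Mb to 66.9 at 2 to 3 Mb. That of scrib1+ab peaks ran from 51.2 at 14 to 15 Mb to 69.2 at 19 to 20 Mb. In 19 of 20 bins of each list the interval held the percentage of the whole region. Sharing moved with the definition used: it was 27.7% and 24.3% with a reciprocal overlap of 50%, and 75.9% and 76.3% with a gap of up to 500 bp allowed.

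Sharing rose with length. Of X ab peaks under 40 bp 18.03% were shared, of those from 40 to under 80 bp 34.6%, from 80 to under 160 bp 51.5%, from 160 to under 320 bp 69.2%, and from 320 bp upwards 92.4%. The scrib1+ab percentages over the same classes were 32.1, 51.1, 75.4, 92.6 and 100, the last being 58 of 58 peaks (93.8 to 100). From the shortest to the longest class, 2L rose from 12.5% to 93.2% in ab and from 29.9% to 98.6% in scrib1+ab. On 3L the rise was from 12.5% to 89.5% and from 28.6% to 100%, so it was not particular to the X. A longer interval meets another more easily by its extent alone, and this was not separated here from the strength of binding. At 500 bp or more 60 of 62 ab peaks and 6 of 6 scrib1+ab peaks were shared. The order of the lists within the arm, which put long peaks first (rho of place and length -0.859 in ab and -0.896 in scrib1+ab), ran the same way. In the first 10% of the ab list's X entries 97.7% of peaks were shared and in the last 10% 25.3%. In the scrib1+ab list these were 99.0% and 27.9%. On 2L they were 97.9% and 24.8% in ab and 98.9% and 29.5% in scrib1+ab. On 3L they were 96.0% and 24.1% in ab and 98.0% and 31.0% in scrib1+ab.

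**Figure D4:**
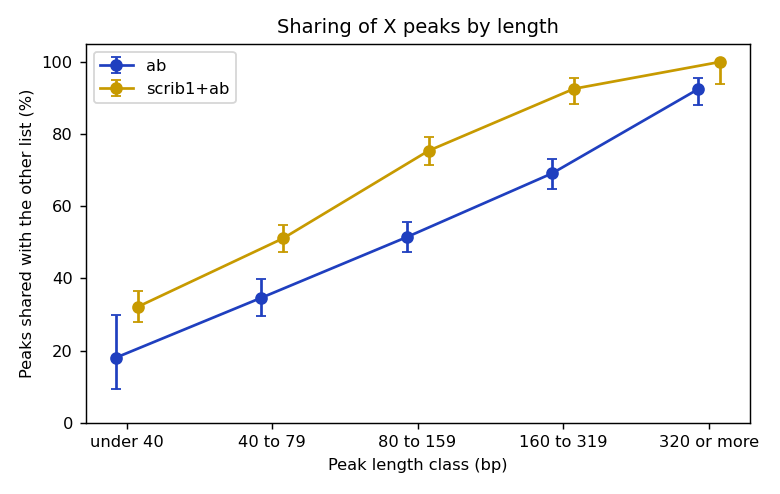
Percent of X peaks shared with the other list (vertical axis, bars are exact 95% intervals) in 5 classes of peak length in bp (horizontal axis); blue is ab, yellow is scrib1+ab. The percentage rises from 18.03 to 92.4 in ab and from 32.1 to 100 in scrib1+ab.

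Paired with its best partner, an X peak was mostly longer in ab discs. In 972 mutually best pairs, the median was 179 bp in ab and 96 bp in scrib1+ab, the ab peak was the longer in 792 (81.5%, 78.9 to 83.9), and the median ratio was 1.75. Lengths were related with a rho of 0.545 over the pairs, which share their positions. On 2L and 3L the median ratio was 1.64 and 1.76, with rho 0.544 and 0.541, so the X showed the same relation. The midpoints of a pair lay a median of 30.5 bp apart.

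**Figure D5:**
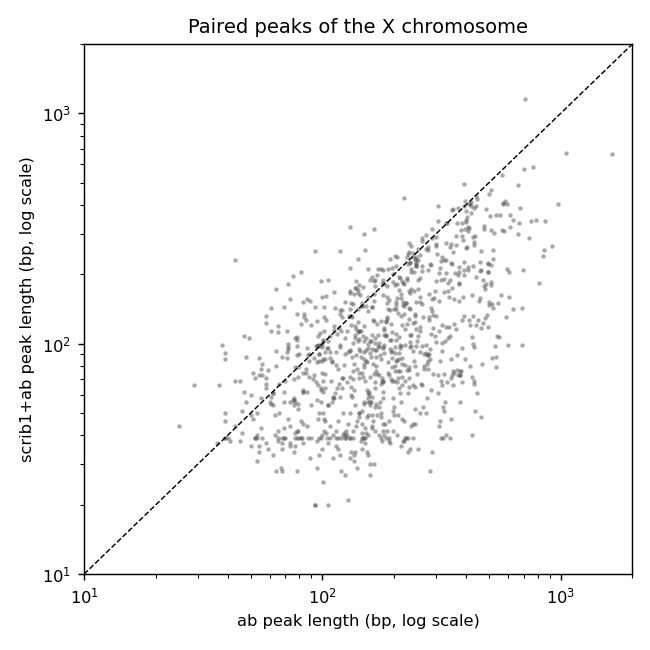
Length in bp of 972 mutually best pairs of overlapping X peaks in the ab list (horizontal axis) and the scrib1+ab list (vertical axis), both on log scales, with a dashed line of equal length. In 792 pairs the ab peak is the longer and the dot lies below the line; the row of dots near 40 bp reflects the common length of 39 bp in scrib1+ab.

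Peaks of a single list were short and often near a peak of the other. The median length of X peaks in ab alone was 95 bp, against 178 bp for shared ones, and in scrib1+ab alone 48 bp against 88 bp. The nearest peak of the other list lay a median of 679 bp away for ab and 758 bp for scrib1+ab, and within 500 bp for 44.0% and 42.8%. Over 10 kb away were 85 ab peaks (11.5% of those in ab alone) and 86 scrib1+ab peaks (10.7%). On 2L 14.4% of single ab and 14.2% of single scrib1+ab peaks were that far away, and on 3L 12.8% and 12.1%. Within 500 bp were 41.3% and 40.2% on 2L and 39.8% and 39.2% on 3L. Single peaks had a lower median length than shared ones on these arms too. Differences between the arms in these shares were not tested.

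Of X peaks of 320 bp or longer, 17 of 224 were in ab alone and 0 of 58 in scrib1+ab alone. On 2L 205 of 220 ab and 73 of 74 scrib1+ab peaks of this length were shared, and on 3L 248 of 277 and 46 of 46. The longest single peaks were a neighbouring pair in ab discs, chrX:1292840-1293578 of 739 bp and chrX:1293638-1294277 of 640 bp. They are the 2 ab peaks of at least 500 bp without a scrib1+ab partner, and the nearest scrib1+ab peak, of 15 bp, lay 28503 and 29301 bp away. The nearest other ab peaks lay 77322 bp before and 82939 bp after them. The next longest single ab peak was 449 bp, at chrX:14964609-14965057, with a scrib1+ab peak 1001 bp away. The longest single scrib1+ab peak was chrX:2358737-2359013, of 277 bp, with an ab peak 813 bp away.

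Genes were placed on dm3 from the study's browser panels, from 2 kb upstream of the first start site drawn to the end of the gene, for 7 X genes that the study picked to display. Their windows held 78 ab and 86 scrib1+ab peaks in 339 kb, or 230 and 254 per Mb. This high density is no independent evidence, since the study chose these genes from these samples.

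N, which encodes the Notch receptor, held 22 ab and 24 scrib1+ab peaks, of which 12 and 14 were shared. Near the start site drawn lay chrX:3028567-3028994 of 428 bp in ab and chrX:3028569-3028858 of 290 bp in scrib1+ab. The longest ab peak at N, of 465 bp, was at chrX:3056699-3057163, where the scrib1+ab peak was 48 bp. Notch is therefore a gene with peaks at its start and within its body in both genotypes.

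The Polycomb genes ph-d and ph-p encode closely related subunits of Polycomb repressive complex 1, which maintains silencing. The ph-d window held 7 peaks in each list, 5 and 6 shared, and the ph-p window 8 in each, 7 and 7 shared. Upstream of ph-d lay chrX:2017625-2018180 of 556 bp in ab and chrX:2017710-2018072 of 363 bp in scrib1+ab. Upstream of ph-p lay the longest scrib1+ab peak of the X. The study's read tracks are blank over most of the coding exons of both genes, so peaks there could not be seen.

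Among the transcription factor genes, br, the Broad BTB-zinc finger factor of the ecdysone response, held 17 ab and 20 scrib1+ab peaks, 9 and 14 shared. Its longest ab peak, chrX:1472048-1472740 of 693 bp, met 4 scrib1+ab peaks of 37 to 209 bp. mamo, a BTB-zinc finger factor known from the germ line, held 14 and 17 peaks, 9 shared in each list. The longest was 458 bp in ab and 158 bp in scrib1+ab. ct, the homeodomain factor Cut, held 6 and 4 peaks, of which 2 in each list were shared. Near its first start site the ab peak chrX:7502377-7502654 of 278 bp had no scrib1+ab partner. dm held 4 and 6 peaks, 2 and 3 shared, the longest chrX:3275831-3276115 of 285 bp in ab.

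A wider set came from genes deregulated in the study's expression arrays and covered by more than 1 probe set. From the first to the last base aligned by their probe sets, 35 could be placed below 20 Mb. Of these 17 held an ab peak and 20 a scrib1+ab peak, 16 held both and 14 held neither. The 35 spans summed to 922 kb with 78 ab and 96 scrib1+ab peaks, or 84.6 and 104 per Mb. The X region as a whole had 86 and 97.9, so the spans were about as dense as the arm.

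Lim1, a LIM-homeodomain factor of the antennal primordium and leg, held 12 ab and 8 scrib1+ab peaks, 6 and 5 shared, all of 191 bp or less. The probe set span of br held 11 and 13. ec, or echinus, which acts in the sorting of interommatidial cells of the eye, held 7 and 10 peaks, the longest 462 and 334 bp. dlg1, whose product Discs large acts with Scribble in apicobasal polarity, held 6 and 9, of which 3 in each list were shared. spri, a Ras and Rab regulator, held 6 and 7, and Ptp4E, a receptor tyrosine phosphatase, 2 and 5. These were 6 of the 10 genes with at least 5 peaks in a list, and the others carry CG numbers.

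Of the 14 genes without a peak, 7 carry a name and 7 a CG number. The longest spans without a peak were those of SK, a calcium-activated potassium channel, with 60.9 kb, and trol, the matrix proteoglycan perlecan, with 53.4 kb. The others were mud, Usf, Cbp80, Gapdh2 and Pis, none longer than 10.4 kb. Sh, the voltage-gated potassium channel Shaker, had 2 ab peaks in 110 kb, the longer of 163 bp, and none in scrib1+ab. sno (strawberry notch, of the Notch pathway), egh and the ribosomal protein gene RpL35 had 1 scrib1+ab peak each, of 38, 25 and 71 bp, and no ab peak.

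By role, the genes placed by probe sets are set here against the 17 and 20 of 35 spans with an ab or a scrib1+ab peak. Among transcription factors, br and Lim1 held peaks in both lists and Usf in none. Of 3 genes of polarity, spindle and matrix, dlg1 alone held peaks. Of 5 genes of metabolism and housekeeping, PhKgamma held 1 ab and 2 scrib1+ab peaks, RpL35 1 in scrib1+ab, and Gapdh2, Pis and Cbp80 none. These genes differ in length, from 1.12 kb at RpL35 to 110 kb at Sh, and the spans leave out what lies before the first aligned base, so the counts do not rank the roles. The groups are small, and the arrays that chose these genes came from the same genotypes.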

How the data were processed

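Chromatin bound by Ab was sequenced from mosaic eye/antennal discs of 2 genotypes, with 1 pull-down and 1 input library each. Alignment was to dm3, by Bowtie, and PeakSeq compared each sample with its own normalised input (READLENGTH 40, MAXGAP 40, MINFDR 0.01, PVALTHRESH 0.0001). The deposited lists give arm, start and end. The deposited score column holds 1 in every row, so thresholds could not be varied and read depth per peak is unknown.

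Starts were converted to positions counted from 1. X, 2L and 3L peaks with a midpoint at or below 20 Mb were counted in bins of 1 Mb and 100 kb. Sharing needed at least 1 bp. The code for it recovered 1045 of 1045 planted shared peaks among 1700 in simulated lists. Those peaks were well separated and had a single partner at most, so the check covers the code and not clustered peaks. Densities have exact Poisson, shares exact binomial and ratios exact conditional intervals, and differences of shares Newcombe score intervals. No test was run, since each genotype has 1 library. Python 3.11.15, NumPy 2.4.6, SciPy 1.17.1 and Matplotlib 3.10.9 were used.

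Gene windows came from browser panels read to 1 kb, and spans from probe set alignments whose build is not stated beside them; those of br lie inside br as drawn on dm3. Of 183 genes in the probe set list, 38 had an alignment on X and 35 had all of them there below 20 Mb. RefSeq gave X as chromosome for all 35. The text names the 10 longest peaks of each list, the 3 fullest and emptiest 1-Mb bins, the 5 fullest 100-kb bins, the 3 longest stretches without a peak, genes with a panel, and genes of the probe set list with 5 or more peaks in a list or none in both, of which those with a CG number were only counted. Sh, sno, egh, RpL35, PhKgamma and the single peaks were named after their values were seen. The members and lists were chosen with earlier results of these data known. Alternatives were another limit, whole arms, joined or longer peaks, no peaks under 40 bp, shifted bins, other definitions of overlap and another upstream reach. No sequence is shown, since no dm3 genome was used here.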

Additional observations from a re-analysis of the deposited data

How the results depend on the processing

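Of 51 alternative settings, 33 left the value inside the main interval (for gene counts, within 1.5 times), 17 moved it outside and 1 reversed its direction. The reversed value was the scrib1+ab to ab ratio on the X, 0.898 without peaks under 40 bp, where the median scrib1+ab length became 82 bp. With the longer 50% of each list, the X to 2L ratio was 1.04 in ab and 1.01 in scrib1+ab, and the X to 3L ratio was 0.930 and 0.887. With the limit at 18 Mb, the X to 3L ratio in scrib1+ab was 1.06. The share of ab peaks in the fullest 10% of 100-kb bins was 29.1% with bins shifted by 50 kb and 23.8% after joining peaks within 500 bp, which gave 25.1% in scrib1+ab. Sharing of ab and of scrib1+ab peaks was 27.7% and 24.3% with a reciprocal overlap of 50%, and 75.9% and 76.3% with a gap of up to 500 bp. It was 52.6% and 66.6% without peaks under 40 bp, and 51.2% and 67.2% with equal numbers of the longest peaks. The cause was not tested. The counts at genes with panels, 74 and 82 from 500 bp upstream, stayed close to the main ones. No paired analysis was possible because each genotype has 1 library, and none could be left out.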

Other observations

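The longest joined regions of X peaks are named here, and those next in length lay elsewhere along the arm. After chrX:12555641-12560987, the next were chrX:3634827-3639019 of 4193 bp with 8 ab and 11 scrib1+ab peaks, and chrX:12644374-12648472 of 4099 bp with 4 and 9. Then came the neighbours chrX:7193446-7197324 of 3879 bp, with 4 and 11 peaks, and chrX:7198723-7202098 of 3376 bp, with 7 and 11. No gene placed here lies at these positions. Of the X regions with peaks of a single list, 46 of 331 in ab and 40 of 396 in scrib1+ab held 2 or more peaks. Other arms were not counted in this way.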
